A study of Mus musculus with 6 samples.

Results

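The 32 genes described here make cholesterol and fatty acids, control that synthesis through the SREBP factors, or turn sterols over. They were taken by symbol from a count table of 54100 genes and comprised 7 genes of the mevalonate arm, 11 of the squalene and sterol arm, 4 for SREBP control and sterol transfer, 8 for fatty acid synthesis and desaturation, and 2 for oxysterol formation and efflux. Each symbol occurred once in the table. The rule that names them goes by role and uses no measured value, but the genes were chosen with earlier results of these data known.

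RNA was sequenced from FAPs (fibro-adipogenic progenitors), mesenchymal cells found between muscle fibres, sorted as Pdgfra+ cells from the plantaris muscle of C57BL/6 mice. Sham and overloaded muscle gave 3 libraries each, with 1000 sorted cells per tube. The sources used here do not give a genotype beyond the strain, the age, the sex, the way in which load was applied, its duration or the number of animals per library. Separate animals are not stated for the libraries of a group, and p-values rest on a spread between libraries that may be technical only.

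Cells build cholesterol from acetyl-CoA through mevalonate, squalene and lanosterol, and build fatty acids from the same precursor through malonyl-CoA. When sterols in the endoplasmic reticulum are low, the SREBP precursors are carried to the Golgi, cut there by proteases and released as transcription factors for most of these enzymes, while the Insig proteins hold the precursors back when sterols are high. Oxysterols work in the opposite direction: they restrain SREBP and activate the LXR receptors, which drive genes of sterol efflux such as Abca1.

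Sham libraries held 500402 to 754456 counts and overloaded libraries 850857 to 1124210. Levels are given as CPM, the usual count relative to library size, with sizes scaled by TMM factors (trimmed mean of M-values). The 8 FAP markers summed to between 43228 and 50220 CPM in sham and between 64102 and 71868 CPM under overload, and none was at 0 in all libraries. Members of that list went opposite ways: the collagen genes Col3a1 and Col1a1 rose from 16961 to 42939 and from 4538 to 12104 CPM, Dcn, Pi16, Dpp4 and Cd34 fell, and Pdgfra and Ly6a did not pass the test. Dcn, a matrix proteoglycan gene, went from 20310 to 8208 CPM, and Pdgfra, the gene of the sorting marker, was at 857 and 594 CPM with no overlap between the groups (edgeR adjusted p = 0.0624). All 5 adipocyte markers together held 11 counts over the 6 libraries, and the Schwann cell gene Sox10 and the myeloid genes Lyz2 and Adgre1 were at 0 in every library. The Schwann cell list without Pmp22, which FAPs can also express, held 15 counts in all. The 5 endothelial markers, none of them at 0 in all libraries, summed to between 122 and 210 CPM in sham and between 33.5 and 69.0 CPM under overload. Tek held most of that sum, with 233 counts under sham and 74 under overload, and the groups overlapped for Pecam1, Cdh5, Kdr and Flt1. Myofibre markers, also 5 and none at 0 in all libraries, summed to between 35.8 and 56.0 CPM and between 21.2 and 30.1 CPM, mostly from Tnnt3, whose groups overlapped. Myh4, with 9 counts under sham and 1 under overload, was the only one of the 5 whose groups did not overlap. Olfactory and vomeronasal receptor genes, which encode sensory receptors, had 781 to 1819 CPM under sham and 232 to 1092 CPM under overload, before TMM scaling. The part of these differences in the results was not tested, except that the receptor share was entered as a covariate in an alternative fit. In bulk RNA of sorted cells, fewer expressing cells and less RNA per cell cannot be told apart.

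Transcripts of 6 genes of cholesterol synthesis, 4 of fatty acid synthesis and desaturation, and the sterol transfer gene Stard4 were higher in overloaded FAPs, by 1.89-fold (Scd1) to 3.24-fold (Nsdhl), while both genes for oxysterol formation and sterol efflux were lower. Of the 22 genes with enough counts to test, 11 rose, 2 fell and 9 did not pass the test (quasi-likelihood test of edgeR, p adjusted by Benjamini-Hochberg over all 7207 genes tested and called under 0.05). Of all genes tested, 29.3% were called, 15.0% higher and 14.3% lower. Hmgcs1, Cyp51, Msmo1, Nsdhl and Hsd17b7 rose most among the tested sterol enzymes, and Elovl6 and Fads1 among the tested fatty acid genes. Cyp27a1 and Abca1 fell. The median log2 fold change was 0.81 over the 22 genes and -0.02 over all genes tested. Of the 22, 16 reached the count filter's level in every library of both groups, 5 fell short of it in a sham library and Cyp27a1 fell short of it in every overloaded library, so those 6 could pass the filter through 1 group alone. Among the 11 that rose, 8 were at that level throughout, the exceptions being Nsdhl, Stard4 and Fasn.

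**Figure D1:**
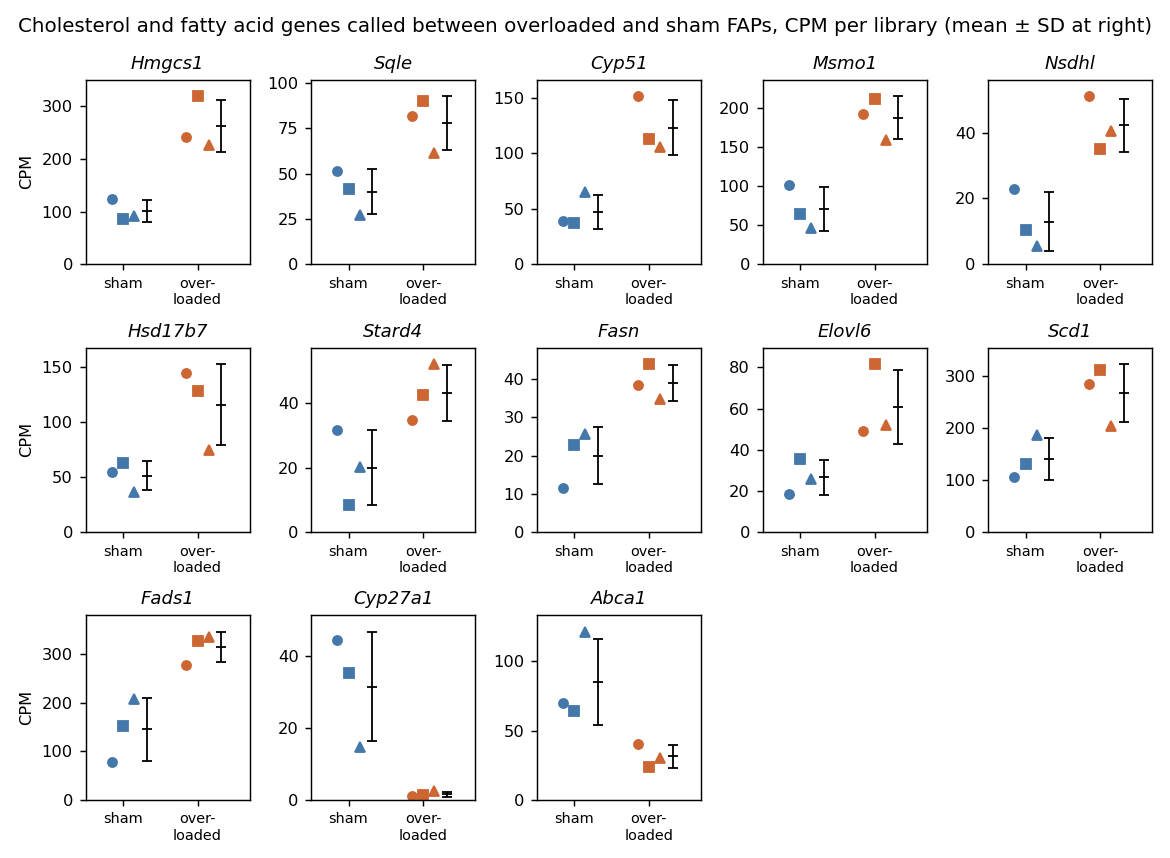
CPM (y axis, linear, from 0) in sham (blue) and overloaded (orange) libraries for the 13 genes that passed the test; circles, squares and triangles are libraries 1, 2 and 3, and the black mark beside each group is its mean ± SD. In every panel the groups are separate, with overloaded libraries above sham libraries in 11 panels and below them for Cyp27a1 and Abca1.

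Every overloaded library lay above every sham library for 12 of the 22 tested genes, against 21.2% of all genes tested, and every overloaded library lay below for 3, against 20.3%.

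In the mevalonate arm, Hmgcs1 encodes the synthase that makes HMG-CoA (chromosome 13, 119690379 to 119708260, plus strand, GRCm38). It stood at 125, 85.0 and 91.5 CPM in sham libraries 1 to 3 and at 241, 319 and 226 CPM in overloaded libraries 1 to 3. The lowest overloaded library was 1.81 times the highest sham library. The sham mean was 100 ± 21.2 CPM and the overloaded mean 262 ± 49.7 CPM (SD, n = 3). Hmgcs1 rose 2.59-fold, or 1.37 ± 0.23 on the log2 scale (here and below ± the standard error, SE; edgeR adjusted p = 3.77e-05). Acat2, the cytosolic thiolase that supplies acetoacetyl-CoA, was at 14.3, 14.5 and 16.1 CPM under sham and 25.0, 35.1 and 13.9 CPM under overload. Overloaded library 3 lay below every sham library and the other overloaded libraries above them, and the difference did not pass the test (log2 fold change 0.70, SE 0.43, edgeR adjusted p = 0.233).

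The other 5 genes of this arm had too few counts to test. Mvd, the decarboxylase of mevalonate diphosphate, had 2, 1 and 1 counts under sham and 26, 14 and 7 under overload, a ratio of 8.37 after scaling with an exact 95% interval of 3.06 to 32 that covers counting error only. Fdps, which makes farnesyl diphosphate, had 3 counts under sham and 21 under overload, a ratio of 4.98 (1.49 to 26.1). For both, each overloaded library lay above each sham library. The kinase gene Mvk had 4 and 16 counts, with a ratio of 2.85 whose interval of 0.919 to 11.7 takes in 1. Idi1, the isomerase that readies the building blocks for Fdps, had 3 and 12 counts, with an interval of 0.769 to 15.7. Pmvk, the kinase after Mvk, had 21 and 33 counts and a ratio of 1.12 (0.628 to 2.04). With no count filter, Mvd was called higher among 28251 genes (log2 fold change 3.02, SE 0.75, edgeR adjusted p = 0.00174), and Mvk, Fdps, Idi1 and Pmvk were not.

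**Figure D2:**
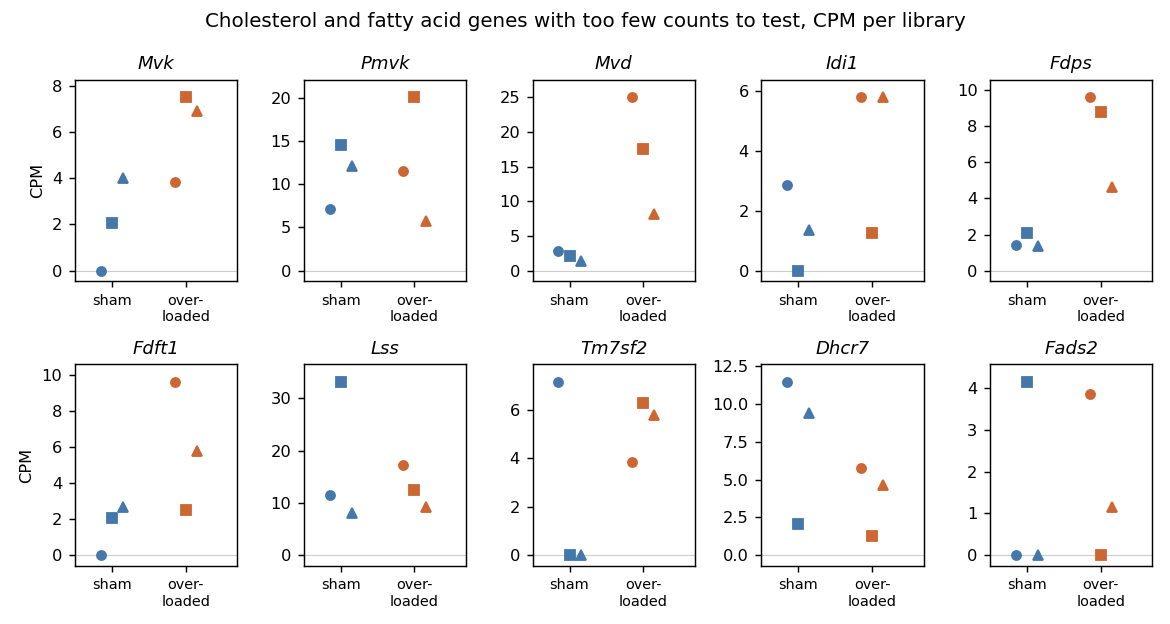
CPM (y axis, linear) in sham (blue) and overloaded (orange) libraries for the 10 genes with too few counts to test; circles, squares and triangles are libraries 1, 2 and 3. The groups are separate for Mvd and Fdps and overlap for the other 8.

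In the squalene and sterol arm, 5 of 7 tested genes rose, 0 fell and 2 did not pass the test, with a median log2 fold change of 1.20. The share called was 71.4%, against 29.3% of all genes tested. It counts Nsdhl, which could pass the count filter through the overloaded group alone. Sqle encodes squalene epoxidase, an oxygen-dependent and rate-limiting step (chromosome 15, 59315077 to 59331192). It was at 51.5, 41.5 and 26.9 CPM under sham and 81.8, 90.3 and 61.3 CPM under overload. The groups did not overlap, but overloaded library 3 was close to sham library 1, at 1.19 times its level. The rise was 0.96 on the log2 scale (SE 0.30, edgeR adjusted p = 0.0141), and without sham replicate 3 the adjusted p was 0.103.

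Cyp51, the demethylase that acts on lanosterol (chromosome 5, 4081145 to 4104746), was at 38.7, 37.3 and 64.6 CPM under sham and 151, 113 and 105 CPM under overload. All overloaded libraries were at least 1.63 times the highest sham library, and the log2 fold change was 1.37 (SE 0.27, edgeR adjusted p = 0.000244). Its exons overlap those of Akap9 on the opposite strand, and without a stated strand setting reads of the pair cannot be told apart there.

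Msmo1, Nsdhl and Hsd17b7 act one after the other to strip methyl groups from the sterol ring, and transcripts of all 3 rose. Msmo1, the methyl sterol oxidase (chromosome 8, 64718139 to 64733792), was at 102, 64.3 and 45.7 CPM under sham and 192, 212 and 159 CPM under overload. The means were 70.6 ± 28.5 and 188 ± 27.0 CPM (SD, n = 3), a shift of 1.41 on the log2 scale (SE 0.26, edgeR adjusted p = 0.000134). All overloaded libraries were at least 1.56 times the highest sham library. Nsdhl, the decarboxylating dehydrogenase (chromosome X, 72918557 to 72958514), was at 22.9, 10.4 and 5.38 CPM under sham and 51.0, 35.1 and 40.5 CPM under overload. Sham library 1 was the highest of its group and lay below every overloaded library. Its log2 fold change of 1.70 was the largest of the 11 and had an SE of 0.42 (edgeR adjusted p = 0.00245). Sham libraries 2 and 3 held only 5 and 4 counts of Nsdhl, and without sham replicate 1 the log2 fold change was 2.52. With the receptor share as a covariate it was 1.66 with an SE of 0.60 (edgeR adjusted p = 0.0701). Hsd17b7, the ketoreductase of the series (chromosome 1, 169949535 to 169969241), was at 54.4, 62.2 and 36.3 CPM under sham and 144, 128 and 74.0 CPM under overload. Overloaded library 3 was the lowest of its group, 1.19 times the highest sham library, and the log2 fold change was 1.20 (SE 0.28, edgeR adjusted p = 0.00167).

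Neither of the tested genes for later steps of the arm passed the test. Ebp, the isomerase that moves a ring double bond, was at 38.7, 29.0 and 22.9 CPM under sham and 51.0, 41.4 and 41.6 CPM under overload. The groups were separate by a factor of 1.07, and the difference did not pass the test (log2 fold change 0.57, SE 0.33, edgeR adjusted p = 0.201). Sc5d, the desaturase that follows, was at 85.9, 112 and 87.5 CPM under sham and 76.0, 79.0 and 49.7 CPM under overload. All overloaded libraries were below all sham libraries, with a shift of -0.47 on the log2 scale (SE 0.26, edgeR adjusted p = 0.181). Whether Sc5d differs from the enzymes before it was not tested.

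The 4 genes of the arm with too few counts to test were Fdft1, Lss, Tm7sf2 and Dhcr7. Fdft1, squalene synthase, had 0, 1 and 2 counts under sham and 10, 2 and 5 under overload, a ratio of 4.04 (exact 95% counting interval 1.17 to 21.5), with overlapping CPM. Lss, which closes the rings to give lanosterol, had 30 and 36 counts, a ratio of 0.855 (0.512 to 1.44), and sham library 2 alone held 16 of its sham counts. Dhcr7, the last reductase of the route, had 16 and 11 counts, a ratio of 0.490 (0.205 to 1.12). Tm7sf2, a sterol reductase, had 5 counts in sham, all in library 1, and 14 in overloaded libraries. For Lss, Dhcr7 and Tm7sf2 the interval of the ratio took in 1.

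**Figure D3:**
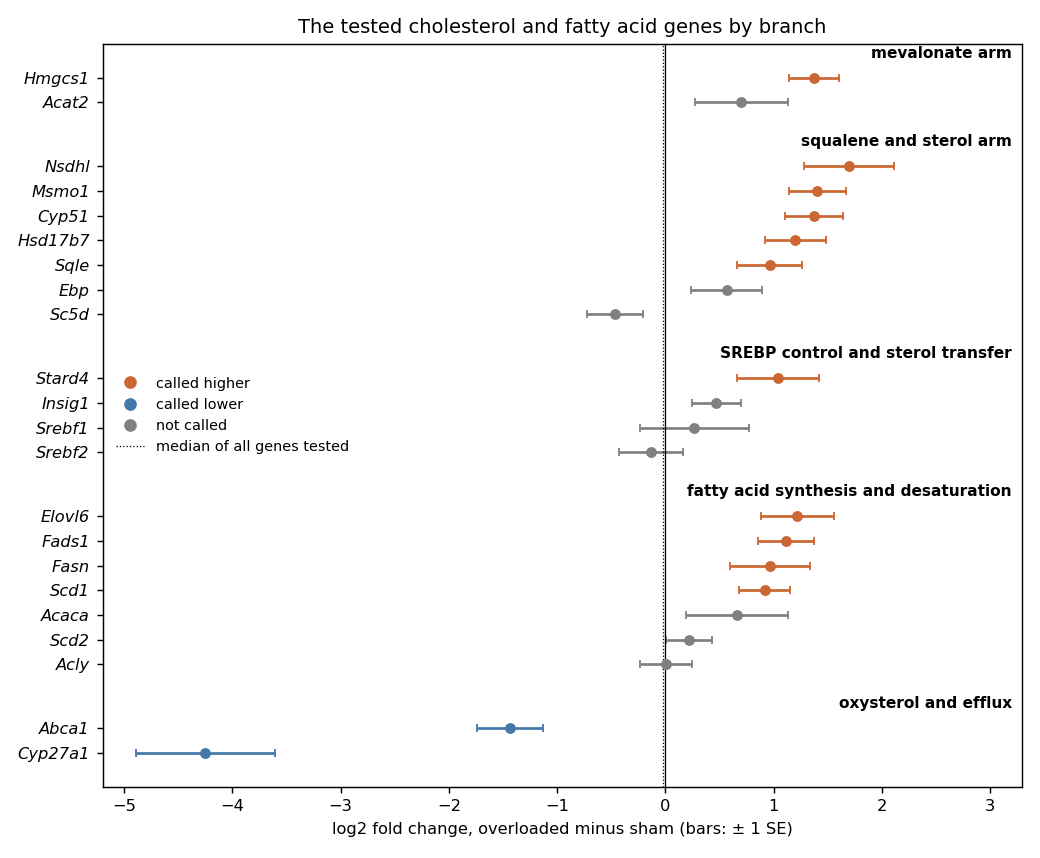
Log2 fold change, overloaded minus sham (x axis), of the 22 tested genes grouped by branch, with bars of ± 1 SE; orange points were called higher, blue points lower, and grey points did not pass the test. The sterol and fatty acid branches lie mostly to the right of 0, from Nsdhl at 1.70 to Sc5d at -0.47, and Abca1 (-1.44) and Cyp27a1 (-4.25) lie to the left.

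Upstream sequence of these genes is shown because SREBP acts at short elements close to the start of its targets, usually beside NF-Y boxes. RefSeq promoter windows (build GRCm38.p6, 250 bases before to 50 after the RefSeq gene start) were at hand for 25 of the 32 genes and for 7 of the 11 that rose, namely Hmgcs1, Cyp51, Msmo1, Nsdhl, Hsd17b7, Fasn and Elovl6. The windows were searched on both strands for the sterol regulatory element TCACNCCAC, the NF-Y box CCAAT and the E-box CACGTG. Below are the 160 bases before the RefSeq start of 5 genes that rose, with Elovl6 as one that holds no match, and of both genes that fell, each from 5′ to 3′ on the gene's own strand. Capitals mark matches to any of the 3 motifs, read on either strand, so that ATTGG is an NF-Y box on the other strand. The gene positions given elsewhere are those of GENCODE, whose outermost start can differ: by it, the Msmo1 stretch lies inside the gene, and the Hsd17b7 and Elovl6 stretches overlap the gene's start.

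Hmgcs1, chr13:119690191-119690350, plus strand: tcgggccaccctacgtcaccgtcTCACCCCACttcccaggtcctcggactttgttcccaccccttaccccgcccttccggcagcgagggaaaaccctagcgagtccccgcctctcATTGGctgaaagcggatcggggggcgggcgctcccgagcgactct

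Msmo1, chr8:64733579-64733738, minus strand: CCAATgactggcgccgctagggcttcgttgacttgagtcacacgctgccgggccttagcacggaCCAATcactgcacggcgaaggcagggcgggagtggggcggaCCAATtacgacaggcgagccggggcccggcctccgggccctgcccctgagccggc

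Hsd17b7, chr1:169969206-169969365, minus strand: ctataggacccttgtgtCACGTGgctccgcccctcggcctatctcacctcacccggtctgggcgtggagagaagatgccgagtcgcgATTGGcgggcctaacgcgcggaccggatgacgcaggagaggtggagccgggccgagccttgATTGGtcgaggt

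Fasn, chr11:120824548-120824707, minus strand: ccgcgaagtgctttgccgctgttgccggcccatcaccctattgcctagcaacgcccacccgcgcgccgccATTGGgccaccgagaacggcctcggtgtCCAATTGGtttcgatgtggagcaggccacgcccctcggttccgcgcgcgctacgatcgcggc

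Elovl6, chr3:129532226-129532385, plus strand: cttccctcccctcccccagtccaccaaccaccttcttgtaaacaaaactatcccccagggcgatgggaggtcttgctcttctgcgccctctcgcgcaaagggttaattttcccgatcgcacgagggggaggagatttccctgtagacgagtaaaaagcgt

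Cyp27a1, chr1:74713375-74713534, plus strand: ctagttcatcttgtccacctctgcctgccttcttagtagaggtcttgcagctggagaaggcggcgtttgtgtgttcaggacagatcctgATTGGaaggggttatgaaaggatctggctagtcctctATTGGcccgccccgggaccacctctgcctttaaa

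Abca1, chr4:53159896-53160055, minus strand: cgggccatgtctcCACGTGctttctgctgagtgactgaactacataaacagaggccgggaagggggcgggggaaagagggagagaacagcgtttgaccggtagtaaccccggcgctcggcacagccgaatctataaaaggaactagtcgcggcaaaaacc

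The Hmgcs1 stretch holds 1 match to the sterol regulatory element and 1 NF-Y box, the Msmo1 stretch 3 NF-Y boxes, and the Hsd17b7 stretch 2 NF-Y boxes and 1 E-box. In Fasn the 3 matches to the NF-Y box include a pair that overlaps, read on opposite strands. The Elovl6 stretch holds no match. Of the genes that fell, Cyp27a1 has 2 NF-Y boxes and Abca1 has 1 E-box. Over all 32851 promoter windows of 300 bases, 1.24% held the sterol regulatory element, 37.4% an NF-Y box and 7.15% an E-box. Over the 30 windows of the 25 genes the counts were 1, 21 and 5, or 3.33%, 70% and 16.7%. Of the 7 windows of genes that rose, 6 held an NF-Y box, as did 15 of the 23 windows of the others. Those 23 windows belong to 18 genes, and by gene the counts were 6 of 7 and 14 of 18. A match describes these letters in these windows and does not show binding, and a gene may have elements that these letters miss.

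Of the 4 genes for SREBP control and sterol transfer, 1 rose, 0 fell and 3 did not pass the test. The share called was 25.0%, against 29.3% of all genes tested. Stard4, the gene that rose, and Srebf1 could pass the count filter through the overloaded group alone. Srebf1, which encodes the SREBP factor tied mostly to fatty acid genes, was at 25.8, 43.6 and 6.73 CPM under sham and 17.3, 23.8 and 46.3 CPM under overload. Its libraries were spread widely in both groups and overlapped (log2 fold change 0.27, SE 0.50, edgeR adjusted p = 0.747), and its sign changed without sham replicate 3 or overloaded replicate 3. Srebf2, for the factor tied mostly to sterol genes, was at 103, 43.6 and 63.2 CPM and at 80.8, 45.1 and 67.1 CPM. The groups overlapped (log2 fold change -0.13, SE 0.30, edgeR adjusted p = 0.787), and the sign changed without sham replicate 1, without overloaded replicate 2 and after thinning to equal depth. Missing the threshold does not show that either gene was at the same level in both groups.

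Insig1, which encodes the protein that retains the SREBP precursors and is itself a SREBP target, was at 316, 218 and 191 CPM under sham and 368, 383 and 257 CPM under overload. Overloaded library 3 lay below sham library 1, and the difference did not pass the test (log2 fold change 0.47, SE 0.22, edgeR adjusted p = 0.115). Leaving out sham replicate 1 or overloaded replicate 3 brought it past the threshold, the lowest adjusted p over 15 alternatives being 0.0253 and the highest 0.377. Stard4, which moves sterol between membranes, was at 31.5, 8.30 and 20.2 CPM under sham and 34.6, 42.6 and 52.1 CPM under overload. The groups were separate, though overloaded library 1 was only 1.10 times sham library 1. It rose by 1.04 on the log2 scale (SE 0.38, edgeR adjusted p = 0.0363), and the call was lost in 8 of 14 alternatives, where adjusted p ranged from 0.0119 to 0.279 over all 14. Among the 8 were DESeq2 and the fits without sham replicate 2 (adjusted p = 0.171), sham replicate 3 (0.0969), overloaded replicate 2 (0.0534) and overloaded replicate 3 (0.126).

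In fatty acid synthesis and desaturation, 4 of 7 tested genes rose, 0 fell and 3 did not pass the test, with a median log2 fold change of 0.92. The share called was 57.1%, against 29.3% of all genes tested. Fasn, which rose, and Acaca, which did not pass the test, could pass the count filter through the overloaded group alone. Acly, which makes cytosolic acetyl-CoA from citrate, was at 90.2, 102 and 86.1 CPM under sham and 94.3, 81.5 and 102 CPM under overload. Sham and overloaded values were intermixed, and the log2 fold change was 0.01 with an SE of 0.24 (edgeR adjusted p = 0.988). Acaca, the carboxylase that makes malonyl-CoA, was at 24.3, 6.22 and 8.07 CPM under sham and 19.2, 21.3 and 23.1 CPM under overload. Sham library 1 lay above all overloaded libraries. The difference did not pass the test (log2 fold change 0.66, SE 0.47, edgeR adjusted p = 0.312), but without sham replicate 1 it did, with a log2 fold change of 1.55 and an adjusted p of 0.0436.

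Fasn, the synthase that makes palmitate (chromosome 11, 120805846 to 120824547), was at 11.5, 22.8 and 25.6 CPM under sham and 38.5, 43.9 and 34.7 CPM under overload. The lowest overloaded library was 1.36 times the highest sham library. Its log2 fold change of 0.97 (SE 0.37) was close to the threshold (edgeR adjusted p = 0.0455), and 11 of 14 alternatives lost the call, with DESeq2 and the replicate block among them. It was also lost without sham replicate 1 (adjusted p = 0.176), sham replicate 2 (0.0665), overloaded replicate 1 (0.0782), overloaded replicate 2 (0.105) and overloaded replicate 3 (0.0553). Adjusted p over the 14 ranged from 0.0408 to 0.177. Elovl6, which lengthens palmitate to stearate (chromosome 3, 129532355 to 129638495), was at 18.6, 35.3 and 25.6 CPM under sham and 49.1, 81.5 and 52.1 CPM under overload. Library 2 was the highest in each group, and the rise was 1.22 (SE 0.34, edgeR adjusted p = 0.0063), a call that all 15 alternatives shared.

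Of the tested desaturase genes, Scd1 and Fads1 rose and Scd2 did not pass the test. Scd1, a stearoyl-CoA desaturase that makes oleate (chromosome 19, 44394455 to 44407879), was at 106, 131 and 186 CPM under sham and 284, 312 and 205 CPM under overload. Overloaded library 3 was 1.10 times sham library 3, the smallest gap between the groups. Its log2 fold change was 0.92 (SE 0.24, edgeR adjusted p = 0.00349). Scd2, its close paralog on the same chromosome (44293674 to 44306864), was at 228, 178 and 221 CPM under sham and 270, 219 and 242 CPM under overload. Overloaded library 2 lay within the sham range (log2 fold change 0.22, SE 0.21, edgeR adjusted p = 0.471). The difference between the paralogs was not tested, and because they share sequence, how reads were divided between them depends on the authors' counting.

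Fads1, which encodes a desaturase of polyunsaturated fatty acids (chromosome 19, 10182888 to 10196877), was at 77.3, 151 and 207 CPM under sham and 279, 329 and 337 CPM under overload. Sham libraries differed among themselves more than overloaded ones did, with means of 145 ± 65.2 and 315 ± 31.2 CPM. The groups were separate, and the log2 fold change was 1.11 (SE 0.26, edgeR adjusted p = 0.00181), and 0.97 with an adjusted p of 0.0647 when the receptor share was a covariate. Its neighbour Fads2, the desaturase of the step before, had 2 counts under sham and 5 under overload, which is too few to compare (ratio 1.78, exact 95% counting interval 0.291 to 18.7).

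Of the 2 genes for oxysterol formation and efflux, both fell, where 14.3% of all genes tested were called lower. Every overloaded library fell short of the count filter's level for Cyp27a1, which could pass the filter through the sham group alone. Cyp27a1, a mitochondrial enzyme that hydroxylates the cholesterol side chain (chromosome 1, 74713574 to 74737892), had 31, 17 and 11 counts under sham and 1, 1 and 2 counts under overload. That is 44.4, 35.3 and 14.8 CPM against 0.962, 1.25 and 2.31 CPM, with no overlap. The log2 fold change was -4.25 (SE 0.64, edgeR adjusted p = 7.85e-06), and it ranged from -4.62 to -3.34 over 13 alternatives that each kept the call. Abca1, the transporter that passes cholesterol out of the cell (chromosome 4, 53030787 to 53159895), was at 70.2, 64.3 and 121 CPM under sham and 40.4, 23.8 and 30.1 CPM under overload. Sham library 3 stood highest, and the highest overloaded library was 0.628 times the lowest sham library. Abca1 fell by 1.44 on the log2 scale (SE 0.31, edgeR adjusted p = 0.000631), and all 15 alternatives kept the call. The 7 leukocyte markers, 2 of them at 0 throughout, summed to between 14.3 and 24.9 CPM in sham and between 1.92 and 20.1 CPM under overload, and Csf1r was the only one of them whose groups did not overlap. The part of leukocytes, and of other cells that express Tek, in the fall of Cyp27a1 and Abca1 was not tested.

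Besides the 32 genes, 65 others of the same pathways were listed, and 37 of them had enough counts to test. This list was also chosen with earlier results of these data known, so its shares are a description only. Of these 37, 9 rose, 4 fell and 24 did not pass the test, so 35.1% were called, against 29.3% of all genes tested, and 24.3% were called higher, against 15.0%. Their median log2 fold change was 0.32. In the rest of sterol and isoprenoid synthesis 4 of 6 rose and 0 fell, so 66.7% were called. Nus1, a subunit of the enzyme that makes dolichol precursors, rose by 0.93 (SE 0.24, edgeR adjusted p = 0.00412), with a value of 0.84 (adjusted p = 0.108) when the receptor share was a covariate. Tmem97, a sterol-regulated membrane protein, rose by 1.35 (SE 0.46, edgeR adjusted p = 0.0241), a call lost without sham replicate 2 (adjusted p = 0.104), sham replicate 3 (0.0789) or overloaded replicate 3 (0.0534), with DESeq2 and with the receptor share as a covariate (0.150). Sham libraries 2 and 3 held 2 and 7 counts of Tmem97, short of the count filter's level, so it could pass the filter through the overloaded group alone. The thiolase gene Acat1 (log2 fold change 0.65, SE 0.25, edgeR adjusted p = 0.0441) is outside the rule for naming, being picked after its values were seen.

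In sterol uptake and transport 3 of 11 fell and 1 rose, so 36.4% were called, against 29.3% of all genes tested. Apoe, the lipid carrier apolipoprotein E, was at 183 ± 36.0 CPM under sham and 92.9 ± 16.9 CPM under overload and fell by 0.99 on the log2 scale (SE 0.24, edgeR adjusted p = 0.00181). Mylip, an LXR-induced ubiquitin ligase that degrades the LDL receptor, fell by 0.97 (SE 0.24, edgeR adjusted p = 0.00232), from 173 ± 21.7 to 87.7 ± 20.5 CPM. Lrp1, a large endocytic receptor for lipoproteins, fell by 0.69 (SE 0.20, edgeR adjusted p = 0.00878), with an adjusted p of 0.0575 without sham replicate 3. Gramd1a, which carries cholesterol from the plasma membrane to the endoplasmic reticulum, rose from 11 counts in sham to 55 in overloaded libraries, a shift of 1.79 on the log2 scale (SE 0.54, edgeR adjusted p = 0.0116), with an adjusted p of 0.0867 without overloaded replicate 1. Every sham library fell short of the count filter's level for Gramd1a, which could pass the filter through the overloaded group alone. With the receptor share as a covariate none of these 4 passed the test, and the log2 fold changes were -0.74 for Apoe, -0.78 for Mylip, -0.71 for Lrp1 and 1.91 for Gramd1a.

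Among genes of SREBP processing, 1 of 5 rose and 1 fell, so 40.0% were called, against 29.3% of all genes tested. Mbtps1, the protease that makes the opening cut in SREBP precursors, fell by 0.65 (SE 0.24, edgeR adjusted p = 0.0361), and 9 of 15 alternatives lost the call, with adjusted p from 0.0204 to 0.519 over the 15. Each fit that left out a library, other than the one without sham replicate 3, was among the 9, with adjusted p from 0.0524 to 0.158. In the oxysterol, LXR and esterification list 3 of 9 genes could be tested and 0 passed.

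In the rest of fatty acid synthesis 3 of 12 rose and 0 fell, so 25.0% were called, against 29.3% of all genes tested. Acsl4, which activates polyunsaturated fatty acids to their CoA esters, had 51, 38 and 57 counts under sham and 350, 300 and 410 counts under overload. It rose from 76.2 ± 2.93 to 396 ± 70.8 CPM, a shift of 2.38 on the log2 scale (SE 0.23, edgeR adjusted p = 2.64e-09), against 1.70 for Nsdhl, and all 15 alternatives kept the call. Acsl3, another acyl-CoA synthetase, rose by 0.87 (SE 0.26, edgeR adjusted p = 0.00996), with an adjusted p of 0.0788 without overloaded replicate 1 and a value of 0.40 (adjusted p = 0.515) with the receptor share as a covariate. Hsd17b12, the reductase of the fatty acid elongation cycle that works with Elovl6, rose by 0.88 (SE 0.25, edgeR adjusted p = 0.00757), with an adjusted p of 0.0548 without overloaded replicate 3 and a value of 0.66 (adjusted p = 0.216) with that covariate.

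**Figure D4:**
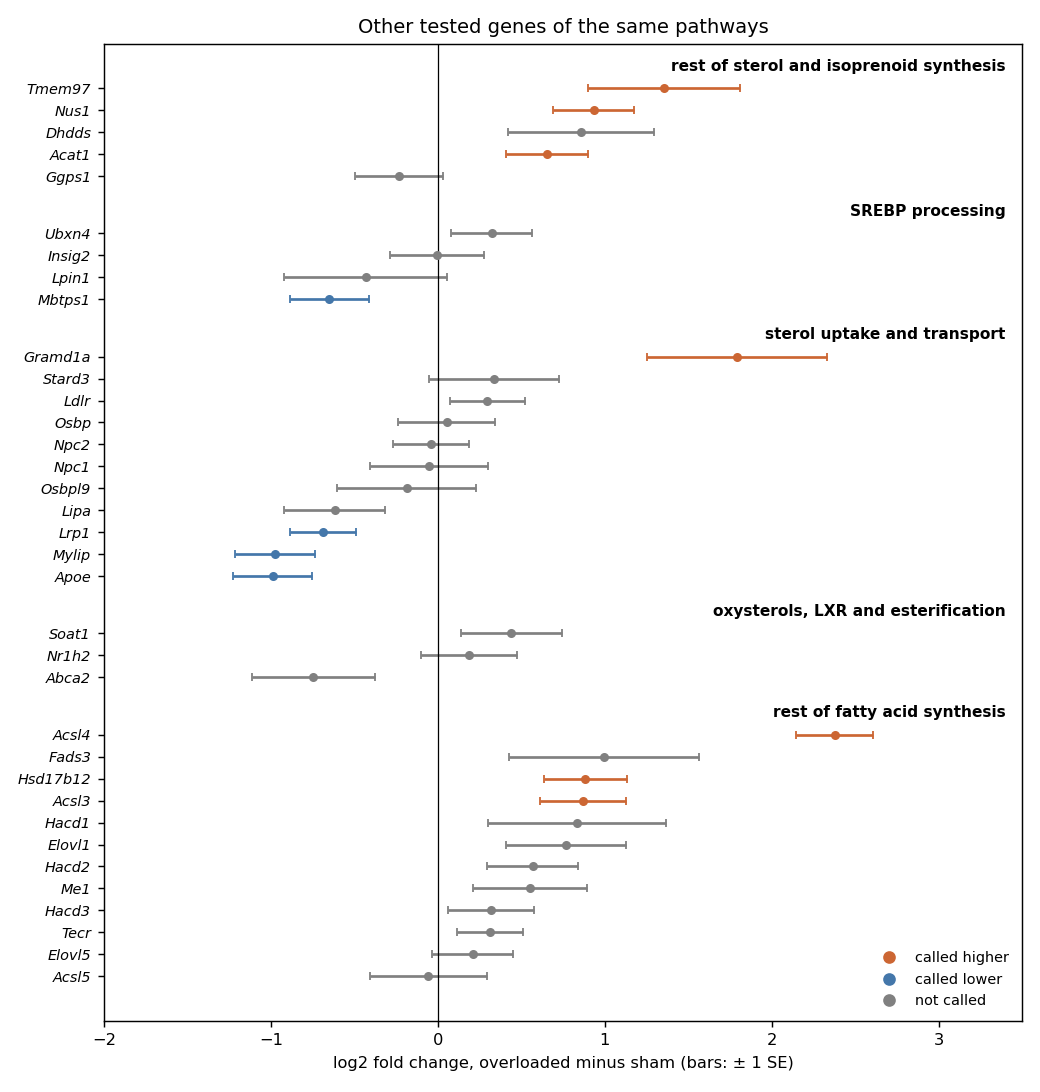
Log2 fold change, overloaded minus sham (x axis), of 35 of the 37 tested genes of the same pathways outside the main set, grouped by list, with bars of ± 1 SE; orange points were called higher, blue lower and grey did not pass the test. Acsl4 at 2.38 lies farthest to the right and Apoe at -0.99 farthest to the left.

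The log2 fold changes of the tested genes kept their direction over the alternatives in most cases. Of the 13 calls, 8 were kept in every alternative in which the gene could be fitted, namely Hmgcs1, Cyp51, Msmo1, Hsd17b7, Elovl6 and Scd1 among the genes that rose, and Cyp27a1 and Abca1. Nsdhl and Fads1 lost the call only with the receptor share as a covariate, and Sqle only without sham replicate 3.

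**Figure D5:**
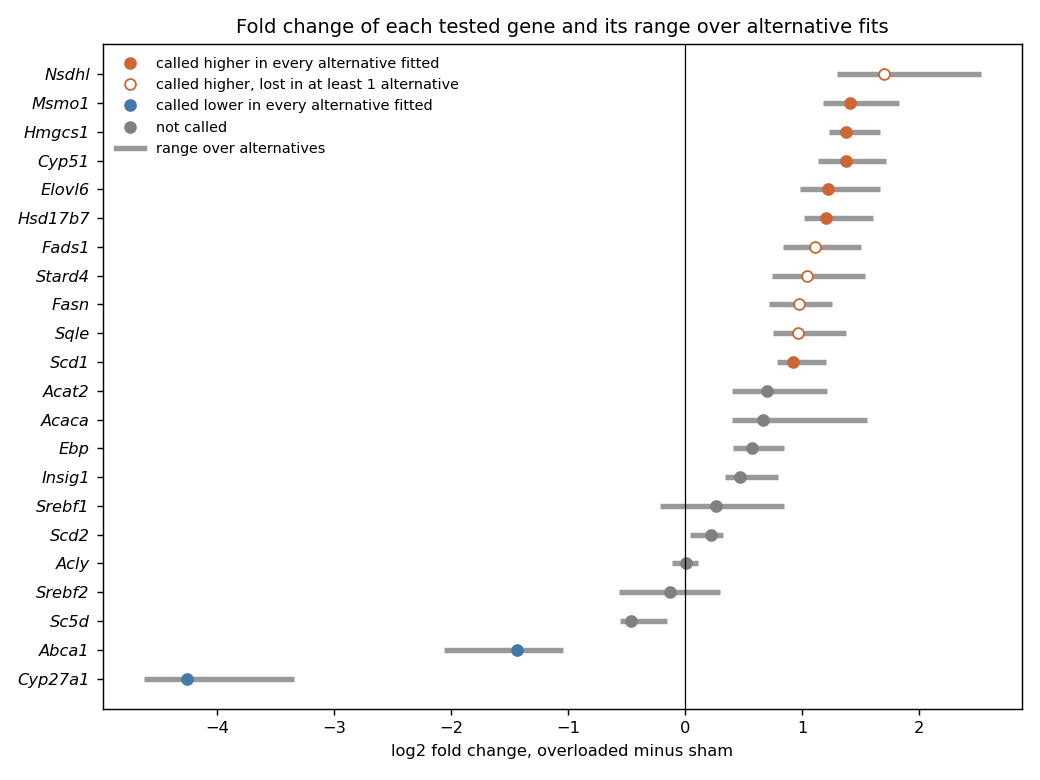
Log2 fold change, overloaded minus sham (x axis), of each of the 22 tested genes (points) with its range over the alternative fits (grey bars); filled coloured points kept their call in every alternative in which the gene was fitted, and open points lost it in at least 1. The bars of Srebf1, Srebf2 and Acly cross 0, and those of the 13 called genes do not.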

How the data were processed

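The authors deposited 1 table of raw counts per gene for the 6 libraries, whole numbers that had not been normalised. Trim Galore (0.6.6), HISAT2 (2.2.1) and featureCounts (2.0.1) are named in the submitters' processing notes, as are build GRCm38 and, with no role given, DESeq2 (1.28.1). Per the labels' protocols, libraries followed a cited published protocol, that of CEL-Seq2, which tags transcripts near the 3′ end. The sources used here do not give the annotation, the strand setting, the handling of multiply mapped reads or any use of molecular identifiers, so intervals cover counting error only.

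From these counts, genes were kept by filterByExpr (minimum count 10, minimum total 15), scaled by TMM and compared with the robust quasi-likelihood test of edgeR 4.0.16 in R 4.3.3, with Benjamini-Hochberg adjustment over 7207 genes. Calls required an adjusted p below 0.05. The SE is the log2 fold change over the square root of F. Replicates differed beyond sampling noise (chi-square per degree of freedom 4.17 to 7.97). The common variation between libraries beyond counting error (coefficient of variation) was 21.2%, and SEs had a median of 0.33. Positions came from GENCODE M21, which held all 54100 identifiers. Exons of 10 of the 32 genes overlap those of another gene (Hmgcs1, Idi1, Fdps, Fdft1, Lss, Cyp51, Tm7sf2, Srebf1, Elovl6 and Scd2), 4 of them on the same strand.

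All 32 genes were named, with up to 12 called genes of the other pathway list in order of adjusted p, some of which are not reported here. Genes, lists, tests and alternatives were chosen with earlier results of these data known. Alternatives were DESeq2 1.42.0, limma-voom 3.58.1, other scaling, count filters, thinning, the replicate number as a block, the olfactory and vomeronasal receptor share as a covariate, and leaving out each library.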

Additional observations from a re-analysis of the deposited data

How the results depend on the processing

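Over 15 alternatives the number of the 32 genes called higher was between 7 and 13, against 11 as reported. The lowest count came with the olfactory and vomeronasal receptor share as a covariate, where 7 of them were higher, 488 genes in all were higher and 381 lower, and 2 and 0 of the other pathway genes were higher and lower. With a minimum count of 30 and after thinning, 1 gene was lower in place of 2, because Cyp27a1 then had too few counts to test. Leaving out 1 library at a time gave 9 to 13 genes higher and 2 lower, 5 to 10 other pathway genes higher and 3 lower, with 5 without overloaded replicate 3. Deviations from the group mean correlated at 0.00822 to 0.0149 between same-numbered libraries and at -0.0250 to 0.0112 between the others. With 3 libraries per group, these values cannot show whether the replicate numbers pair the libraries. With the replicate block 10 genes were higher and 2 lower, the call of Fasn being the one lost. Sign changes occurred for 3 genes that did not pass the test. Srebf1 was at -0.22 without overloaded replicate 3 and -0.21 without sham replicate 3, with a range of -0.215 to 0.845 when 1 library was left out. Srebf2 was at 0.0382 after thinning, and leaving out a library gave 0.29 (sham replicate 1), 0.08 (overloaded replicate 2) and a range of -0.351 to 0.293. Acly was at -0.0600 with library size only, -0.00595 with a minimum count of 30 and -0.11 with the receptor share, and leaving out a library gave -0.0250 (sham replicate 3), -0.0436 (overloaded replicate 3) and a range of -0.0436 to 0.106. Where no value or construction is named, the cause was not tested. The 10 genes without a test did not pass the count filter.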
